A study of Saccharomyces cerevisiae with 4 samples.

Results

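The heat response described here is that of BY4741, a haploid laboratory strain of budding yeast, taken as the difference between 1 array of cells exposed to 40 °C and 1 array of cells kept at 30 °C. These are 2 of the 4 arrays of the series. Every gene was included, with no selection by its difference, and each was read from whichever of its probe sets had the highest 4-array mean, which gave 5430 genes after 6 that read at background on all 4 arrays were left out. BY4741 carries Mata his3Δ1 leu2Δ0 met15Δ0 ura3Δ0, and the other strain is the same one with hsp30Δ::kanMX, a marker in place of HSP30. The first group is BY4741 exposed to 40 °C for 30 min, and its reference is BY4741 at 30 °C. The 2 remaining groups, labelled hsp30Δ, had the same treatment and were used only for comparison. All cells were in log phase in the rich medium YPD, and total RNA was hybridised. Each group is 1 array, so the values below are sizes with no error, no test and no replicate check, and the labels give nothing on how far another culture of the same strain would vary.

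As background, yeast moved to a higher temperature meets misfolded protein first. The heat shock factor Hsf1 then drives genes for chaperones, which hold or refold proteins, and the related factors Msn2 and Msn4 drive a broad set of general stress genes for redox defence and storage sugars. At the same time cells are known to cut transcription of ribosomal proteins and of the factors that assemble ribosomes, the costliest activity of a growing cell. Growth on glucose also keeps many genes for other carbon sources repressed, through the repressor Mig1, which the kinase Snf1 turns off.

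Levels are the log2 expression values deposited by the authors, and differences are 40 °C minus 30 °C in log2 units, so 1 unit is 2-fold. A single number in brackets after a gene is its BY4741 difference. The values come from whole cultures, so fewer cells with a transcript and less of it per cell cannot be told apart. How they were scaled between arrays is not given, so a shift common to all genes cannot be read. Before any result it has to be said that the BY4741 30 °C array stood apart from the other 3. Over the 5430 genes its Pearson r was 0.849 with BY4741 40 °C, 0.812 with the array labelled hsp30Δ 40 °C and 0.787 with that labelled hsp30Δ 30 °C. Pairs among the other 3 arrays lay between 0.937 and 0.980. The mating type fitted the label, since the 7 a-specific genes read from 11.23 (ASG7) to 14.80 (MFA1) at 30 °C and the 4 alpha-specific ones from 3.54 to 9.61. MET17, the gene of the met15Δ0 allele, was at the lowest value of the table, 1.95, on all 4 arrays, while HIS3, altered in his3Δ1, read 10.22 at 40 °C and 12.36 at 30 °C. HSP30, deleted by label in the other strain, read 15.91 and 15.18 on the arrays labelled hsp30Δ 40 °C and 30 °C. Where its probes lie relative to the deletion was not checked, so these arrays are named by their label only.

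Between the 2 BY4741 arrays 1027 genes (18.9% of 5430) were at least 2-fold higher at 40 °C and 1021 (18.8%) at least 2-fold lower, nearly equal numbers. The median difference was 0.13, and 90% of genes, from the 5th to the 95th percentile, lay between -2.39 and 2.02. The sizes were not symmetric. At 4-fold fewer genes were higher than lower, 277 (5.10%) against 397 (7.31%), while at 16-fold 52 (0.958%) were higher and 22 (0.405%) lower, and at 32-fold 17 (0.313%) and 5 (0.0921%). As deposited, more genes were thus higher than lower at 16-fold and 32-fold, and these counts were not rerun under another scaling. Dim readings enter here. Of 119 genes not above the highest fission yeast probe set, a measure of background, on a BY4741 array, 60 were at least 2-fold higher and 1 lower. Under quantile normalization 207 genes lay 4-fold or more above and 394 below. In the same comparison on the arrays labelled hsp30Δ, 88 genes (1.62%) were higher by 2-fold or more and 85 (1.57%) lower, with 90% of genes between -0.71 and 0.71. The scatter of levels at 40 °C against 30 °C shows the ribosome genes as a cloud below the diagonal and the genes of gluconeogenesis and meiosis mostly above it.

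**Figure D1:**
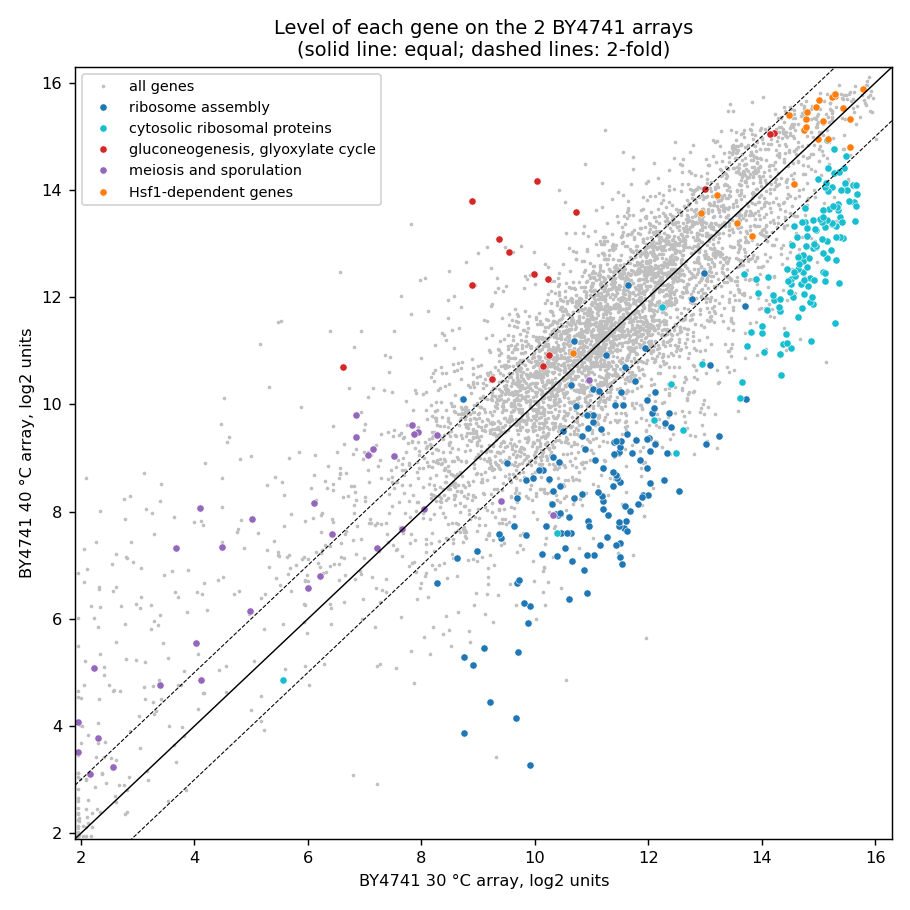
Level of each of 5430 genes on the BY4741 40 °C array (vertical axis, log2 units) against the BY4741 30 °C array (horizontal axis, log2 units), with 5 gene lists in colour. Points below the lower dashed line, 1021 in all, are at least 2-fold lower at 40 °C and include 120 of 129 ribosomal protein genes; Hsf1-dependent genes lie between the dashed lines.

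The place of each gene among the 4 arrays qualifies every size that follows. Of the 1027 higher genes, 998 had their lowest value of the 4 arrays on BY4741 30 °C (97.2%, against 43.1% of all genes). Of the 1021 lower genes, 960 had their highest value there (94.0%, against 34.7% of all genes). For 707 higher and 739 lower genes all 3 other arrays differed from BY4741 30 °C by at least 2-fold in the same direction, and 1 of these 3 was an unheated array, that labelled hsp30Δ 30 °C. Heat and whatever else set the single BY4741 30 °C culture or array apart cannot be told apart in this design.

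The genes furthest up in BY4741 at 40 °C included several of little known function and several that are kept low during growth on glucose. Among genes read above all fission yeast background probe sets on both arrays, the first as deposited was ERR3, an enolase-like gene near a chromosome end, with 11.54 at 40 °C and 5.47 at 30 °C, a 67.4-fold difference. Next came YNR071C, an uncharacterised epimerase-like gene (11.56 at 40 °C and 5.52 at 30 °C), YDL218W (11.12 at 40 °C and 5.16 at 30 °C) and YIG1, which is implicated in glycerol production (5.90). These 4 genes were 59.5- to 67.4-fold higher, and on the 2 arrays labelled hsp30Δ none of them read below 9.75. DSF1, a mannitol dehydrogenase gene, read 13.36 at 40 °C and 7.81 at 30 °C, but its probe set is marked as sharing sequence with another gene, as are those of ERR3, PAU21 and SNO4. Known enzymes and carriers of the 20 furthest up were the lactate permease JEN1 (30.0-fold), the mitochondrial citrate and methylcitrate synthase CIT3 (27.5-fold), the galactose permease GAL2 (26.1-fold) and the hexose transporter HXT9 (23.5-fold). Meiotic genes were there too, with CSM4, which helps move meiotic chromosomes, at 10.12 at 40 °C and 4.52 at 30 °C and the meiotic splicing factor MER1 at 8.05 at 40 °C and 3.14 at 30 °C. The others included FAT3, implicated in fatty acid uptake (31.5-fold), RTA1, tied to resistance to an aminocholesterol (34.5-fold), and the Hsp31-family gene SNO4 (32.3-fold). Many of these sizes depended on the scaling. Under quantile normalization DSF1 came first at 5.44, with YIG1 at 5.31, ERR3 at 5.10, YNR071C at 5.07 and YDL218W at 4.86. CIT3 was then at 3.42, against 4.78 as deposited, GAL2 at 3.14 against 4.71, HXT9 at 2.81 against 4.56 and RTA1 at 3.34 against 5.11. CSM4 was at 4.18, MER1 at 3.23, FAT3 at 4.37 and SNO4 at 3.99. HXT9 was at 3.20 when probe sets marked as sharing sequence were left out. For genes at background at 30 °C the size is only nominal: YBL008W-A read 8.63 at 40 °C and 2.10 at 30 °C. RRT5 read 8.02 at 40 °C and 2.33 at 30 °C, YML083C 8.24 at 40 °C and 2.75 at 30 °C, and YGL138C and ECM12 differed by 5.25 and 5.16. The highest fission yeast probe set read 2.84, so all 5 lay at or under that level at 30 °C.

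The genes furthest down were mostly ones needed to build ribosomes. YVH1, a phosphatase needed for a late step of large subunit maturation, had the lowest difference, with 3.28 at 40 °C and 9.92 at 30 °C (99.7-fold lower). AAH1, adenine deaminase, read 5.64 at 40 °C and 11.95 at 30 °C (79.2-fold lower), and TRM11, a subunit of a tRNA methyltransferase, 3.43 at 40 °C and 9.31 at 30 °C (58.9-fold lower). Then came PPT1, the phosphatase that acts on Hsp90 (4.87 at 40 °C and 10.54 at 30 °C), and RIX1, a large subunit assembly factor (4.15 at 40 °C and 9.66 at 30 °C). Another 11 of the 20 lowest genes act in subunit assembly, among them SYO1, an importer and chaperone of ribosomal proteins (29.4-fold), SSF1 (27.0-fold), the GTPase NOG1 (22.6-fold), UTP8 (21.6-fold) and KRE33, an RNA acetyltransferase (18.7-fold). HGH1, a chaperone for translation elongation factor 2, was 23.1-fold lower. Besides AAH1, 3 of the 20 serve neither translation nor Hsp90: GPP1, a glycerol-3-phosphatase (10.80 at 40 °C and 15.13 at 30 °C), HXT1, the low-affinity glucose transporter (5.99 at 40 °C and 10.02 at 30 °C), and YFR057W, an uncharacterised gene (-4.29). On the arrays labelled hsp30Δ YFR057W differed by 5.18, the opposite way, but its hsp30Δ 30 °C reading of 2.28 is under the highest fission yeast probe set, 2.84, so that size is nominal.

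To describe the response by function, 85 gene lists covering 1822 genes were read in the same way. The lists were chosen with earlier results of these data known. Over the lists, 8 medians were at least 2-fold higher at 40 °C and 14 at least 2-fold lower. Among the 14 is the list of auxotrophy genes, which rests on 1 measured gene, HIS3 (-2.14). Under quantile normalization the medians of hexose transporters and ergosterol synthesis were 0.54 and -0.98, under 2-fold. The plot of list members shows lists of synthesis and assembly left of zero, and lists of storage, respiration, degradation and alternative carbon sources right of it. The counts of list members below are to be read against the 18.9% and 18.8% of all genes, and several lists lie near those shares.

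**Figure D2:**
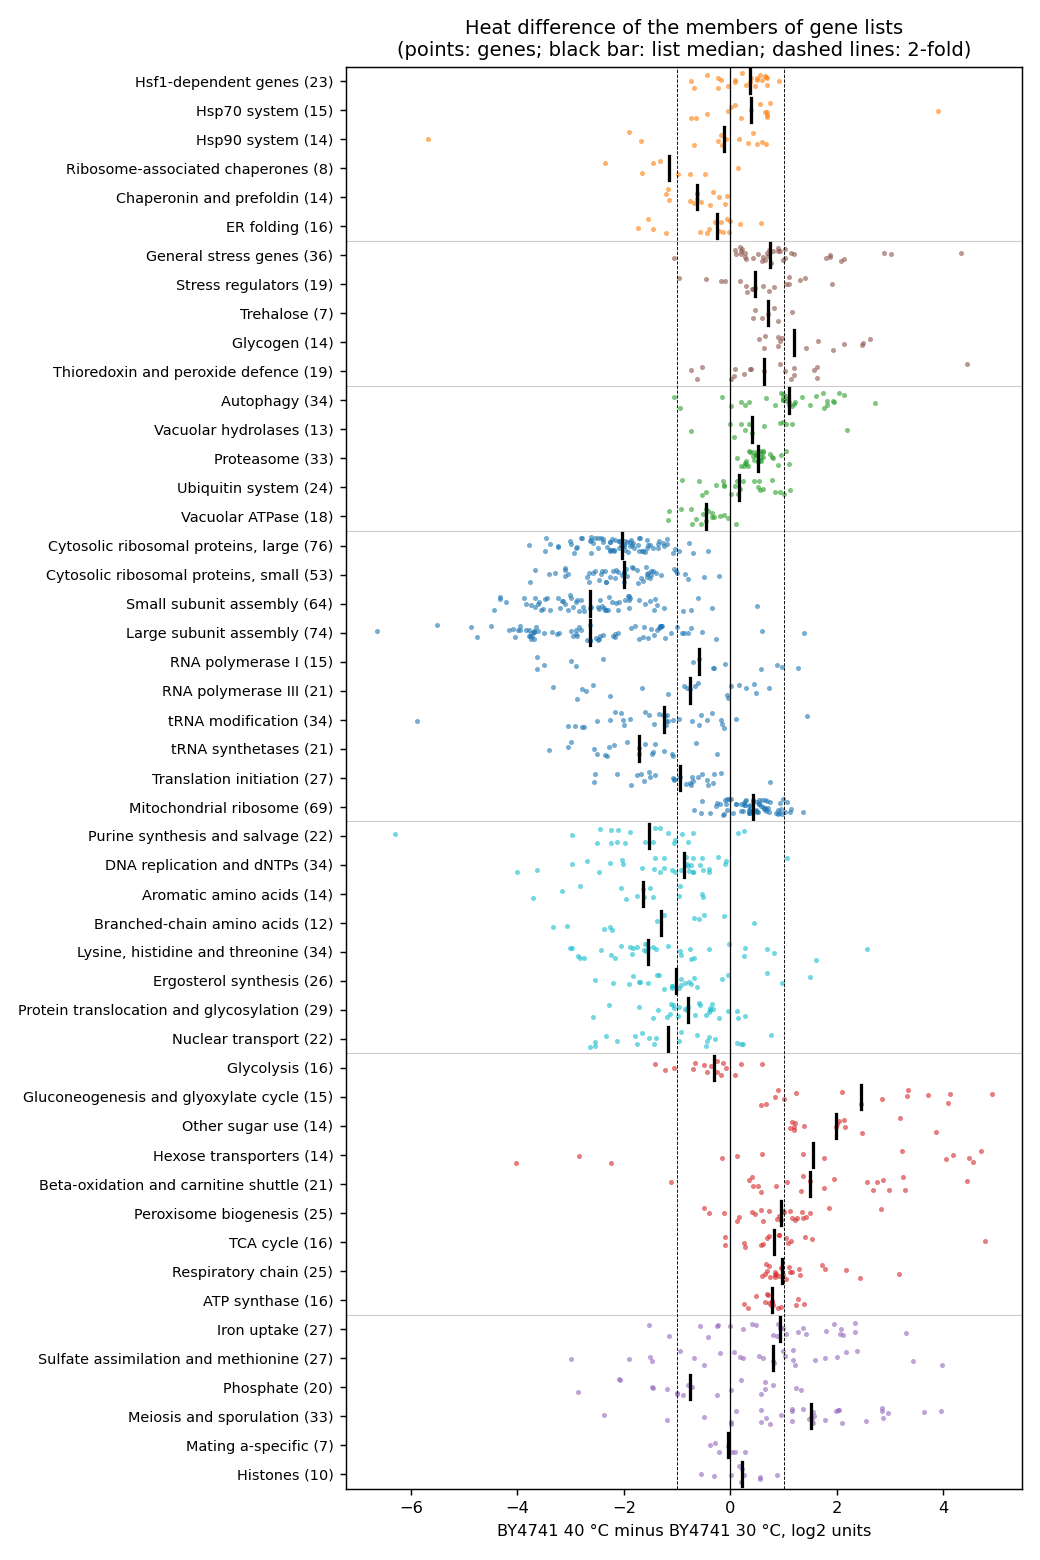
Difference of each member gene between BY4741 40 °C and BY4741 30 °C (horizontal axis, log2 units) for 49 gene lists (rows, number of measured genes in brackets), with the list median as a black bar. The medians of small and large subunit assembly lie at -2.63, that of gluconeogenesis at 2.45, and that of Hsf1-dependent genes at 0.38.

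Chaperones of the heat shock response moved little. Of 23 Hsf1-dependent genes none was 2-fold higher and none 2-fold lower, with a median of 0.38, 16 above zero and 7 below. The 4 highest differences were those of HSP78, the mitochondrial disaggregase (15.40 at 40 °C and 14.48 at 30 °C), MDJ1, the J-protein of mitochondrial Hsp70 (13.90 at 40 °C and 13.22 at 30 °C), SSA4, a heat-inducible Hsp70 (0.68), and HSP82, the inducible Hsp90 (0.66). Each was under 2-fold. In 9 of the 23 the 30 °C level was above 15, close to the top of that array, 16.01, and without genes over 15 on either array the median was -0.04. On the arrays labelled hsp30Δ the list differed by -0.03 between temperatures. Among the 7 below zero were SSA2, a cytosolic Hsp70, at 14.81 at 40 °C and 15.55 at 30 °C, and YDJ1, its J-protein, at 14.11 at 40 °C and 14.56 at 30 °C. One Hsp70 stood out: SSA3, normally induced late in growth and by stress, read 15.12 at 40 °C and 11.23 at 30 °C, a 14.9-fold difference, and ECM10, the minor mitochondrial Hsp70, read 10.20 at 40 °C and 8.02 at 30 °C.

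Of 8 genes of ribosome-associated chaperones 4 were at least 2-fold lower (median -1.15): ZUO1 (12.39 at 40 °C and 14.75 at 30 °C) and SSZ1 (12.57 at 40 °C and 14.02 at 30 °C), which form the ribosome-associated complex, and the Hsp70s SSB1 (-1.32) and SSB2 (-1.66), which bind nascent chains. SSB1 was at -2.37 when probe sets marked as sharing sequence were left out. All 14 genes of the chaperonin and prefoldin, which fold actin and tubulin, were below zero (median -0.62), and 3 at least 2-fold lower: GIM5 (-1.20), CCT5 (-1.17) and PAC10 (-1.14). In the Hsp90 system 3 of 14 genes were also at least 2-fold lower, all co-chaperones: PPT1, CNS1 (8.37 at 40 °C and 10.28 at 30 °C) and CPR7 (8.95 at 40 °C and 10.63 at 30 °C), while STI1 and CPR6 differed by 0.49 and 0.59. For both of these lists the share lower was near the 18.8% of all genes. In the endoplasmic reticulum 4 of 16 folding genes were at least 2-fold lower. They were LHS1 (-1.73) and SIL1 (-1.20), which exchange nucleotide on the Hsp70 Kar2, the J-protein SCJ1 (-1.54) and the disulfide isomerase EUG1 (-1.46). KAR2 itself differed by -0.06, and HAC1 and IRE1, which run the unfolded protein response, by -0.17 and 0.58.

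Of 36 general stress genes 35 were above zero and 12 at least 2-fold higher (median 0.74), or 1.51 without genes over 15 on either array. MOH1, of unknown function and known from stationary phase, read 12.31 at 40 °C and 7.98 at 30 °C (20.1-fold). SDP1, a stress-inducible MAP kinase phosphatase, read 12.35 at 40 °C and 9.34 at 30 °C. SIP18, a desiccation protein, read 14.62 at 40 °C and 11.73 at 30 °C, and XBP1, a repressor of cyclin genes under stress, 12.63 at 40 °C and 10.49 at 30 °C. The exception below zero was GPP2, a glycerol-3-phosphatase (13.33 at 40 °C and 14.40 at 30 °C). HSP26 and HSP12, which code for a small heat shock protein and a membrane-protecting protein, differed by 0.22 and 0.18 with 30 °C levels of 15.89 and 15.86, near the highest value of that array, 16.01. Of 19 regulators of stress genes 6 were higher by 2-fold or more and none lower: YAP6 (9.41 at 40 °C and 7.50 at 30 °C), RPN4, the activator of proteasome genes (14.46 at 40 °C and 13.05 at 30 °C), GIS1 (1.30), HSF1 (1.11), CAD1 (1.10) and MSN4 (1.04). MSN2 read 11.04 at 40 °C and 11.13 at 30 °C.

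Genes for the reserve sugars were above zero throughout. All 14 glycogen genes were above zero and 7 at least 2-fold higher (median 1.20, or 1.79 without genes over 15). The self-glucosylating primers of glycogen, GLG1 (13.96 at 40 °C and 11.46 at 30 °C) and GLG2 (12.34 at 40 °C and 10.20 at 30 °C), the phosphatase subunits that activate glycogen synthase, GAC1 (1.65), PIG2 (1.93) and GIP2 (2.48), and the synthase GSY1 (1.42) were among them, as was SGA1, the glucoamylase of sporulating cells (2.63). All 7 trehalose genes were above zero (median 0.71), with 1 at least 2-fold higher, the vacuolar and wall trehalase ATH1 (12.86 at 40 °C and 11.70 at 30 °C). TPS1, the trehalose-6-phosphate synthase, read 15.42 at 40 °C and 14.99 at 30 °C. Redox genes were higher in part: of 19 genes of thioredoxin and peroxide defence 8 were higher by 2-fold or more and none lower. Those 8 held the mitochondrial forms TRX3 (1.62), TRR2 (1.58), PRX1 (1.19) and SOD2 (1.03) and the peroxisomal catalase CTA1 (11.38 at 40 °C and 6.93 at 30 °C, 21.8-fold), with SRX1 (1.64), CTT1 (1.19) and TSA2 (1.14) as the other 3, while the cytosolic TRX1 (-0.53), TRR1 (-0.62) and TSA1 (0.09) lay between -1 and 1. Of 20 glutathione genes 5 were higher by 2-fold or more and 5 lower, with GTO3 at 2.91 and GRX3 at -1.5 as the extremes. Under quantile normalization GTO3 was at 1.68.

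Ribosome assembly had the lowest medians of the 85 lists. Of 64 genes for small subunit assembly 59 were at least 2-fold lower and none higher, and of 74 for large subunit assembly 65 were lower and 1 higher, both with a median of -2.63. For the large subunit the median level was 8.60 at 40 °C and 11.25 at 30 °C. Named members of the small subunit list were UTP8 (6.49 at 40 °C and 10.92 at 30 °C), NOP14 (7.16 at 40 °C and 11.49 at 30 °C), KRR1 (-4.32), IMP3 (-4.22), UTP21 (-3.88) and NOP1, the fibrillarin that methylates rRNA (-3.84). The 1 higher gene of the large subunit list was RSA1 (10.11 at 40 °C and 8.73 at 30 °C), a factor of the R2TP pathway for small nucleolar RNPs, which was named after its value was seen. Ribosomal proteins followed: 72 of 76 large subunit genes (median -2.04) and 48 of 53 small subunit genes (median -2.0) were at least 2-fold lower, and none of the 129 was above zero. Among them RPS9B read 11.52 at 40 °C and 15.30 at 30 °C, RPS0B 11.18 at 40 °C and 14.86 at 30 °C and RPS0A 11.15 at 40 °C and 14.44 at 30 °C. Of these 129 genes 26 have probe sets that are marked as sharing sequence with another gene, so near copies cannot be told apart there. All 129 had their highest value of the 4 arrays on BY4741 30 °C. Without ribosomal protein and assembly genes, 1026 genes (19.9% of 5163) were higher by 2-fold or more and 777 (15%) lower.

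In the transcription machinery for rRNA and tRNA, enzyme subunits made up the genes that were lower. Of 15 RNA polymerase I genes 6 were at least 2-fold lower, all enzyme subunits: RPA12 (6.51 at 40 °C and 10.15 at 30 °C), RPA49 (8.04 at 40 °C and 11.67 at 30 °C), RPA43 (-3.50), RPA190 (-2.98), RPA135 (-2.90) and RPA34 (-2.39). The core factor gene RRN7 was at least 2-fold higher (9.61 at 40 °C and 8.33 at 30 °C), and RRN5, RRN6 and RRN9 differed by 0.98, 0.87 and 0.57. Of 21 RNA polymerase III genes 8 were at least 2-fold lower, with the largest differences in RPC17 (5.94 at 40 °C and 9.27 at 30 °C), RPC34 (7.63 at 40 °C and 10.51 at 30 °C), RPC19 (-2.80), RPC40 (-2.71), RET1 (-2.57) and RPC31 (-2.26), all subunits. RPC19 and RPC40 belong to both enzymes. RNA polymerase II, which makes mRNA, had 3 of 12 genes at least 2-fold lower, and all 3 are shared by the 3 polymerases: RPB10 (-1.32), RPO26 (-1.02) and RPB8 (-1.01). Its largest subunit RPO21 differed by -0.39, and RPB4, of a subcomplex known for stress survival, by 0.64. Among 13 regulators of ribosomal genes only CRF1, a corepressor, was 2-fold different, at 7.43 at 40 °C and 4.49 at 30 °C (1.53 as the difference under quantile normalization); the activators IFH1, FHL1 and SFP1 differed by -0.47, -0.32 and 0.53.

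Genes that make and charge tRNA were lower in step. Of 34 tRNA modification genes 23 were at least 2-fold lower and 1 higher (median -1.25). They were led by TRM11, then GCD10 (9.20 at 40 °C and 12.25 at 30 °C), the pseudouridine synthase PUS1 (8.58 at 40 °C and 11.49 at 30 °C), TRM3 (-2.78) and TRM1 (-2.75). Of 21 cytosolic tRNA synthetase genes 19 were at least 2-fold lower and all 21 below zero (median -1.72), with a median level of 11.99 at 40 °C and 14.11 at 30 °C. The lysyl enzyme KRS1 read 11.01 at 40 °C and 14.43 at 30 °C, and the tryptophanyl enzyme WRS1 9.86 at 40 °C and 12.91 at 30 °C. The leucyl enzyme CDC60 and the methionyl enzyme MES1 differed by -2.99 and -2.57. On the arrays labelled hsp30Δ the same list was higher at 40 °C, with a median of 0.66 and 2 of 21 genes at least 2-fold higher, the opposite direction. Translation initiation had 13 of 27 genes at least 2-fold lower, among them TIF3 (10.12 at 40 °C and 12.69 at 30 °C), GCN3 (10.24 at 40 °C and 12.78 at 30 °C), TIF5 (-2.13) and PRT1 (-1.87). Of 12 elongation and termination genes 5 were lower and 1 higher (median -0.74), with NEW1 (10.59 at 40 °C and 13.01 at 30 °C), YEF3 (13.41 at 40 °C and 15.30 at 30 °C) and TEF4 (-1.64) lower and HEF3, the spare copy of YEF3, higher (2.61). Nuclear transport, which carries assembly factors in and subunits out, had 11 of 22 genes at least 2-fold lower: the importins KAP123 (9.84 at 40 °C and 12.46 at 30 °C) and KAP122 (8.14 at 40 °C and 10.68 at 30 °C), the tRNA exporter LOS1 (-2.55) and SXM1 (-2.34) came first. Mitochondrial ribosomal proteins did not share this pattern: of 69 genes 5 were higher by 2-fold or more and none lower (median 0.42), with MRPL33 at 1.36 and MRPS17 at 1.15.

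The plot over the 4 arrays sets these lists side by side. For large subunit assembly the array labelled hsp30Δ 30 °C read 8.50 as its median, near the 8.60 of BY4741 40 °C and the 8.40 of hsp30Δ 40 °C, whereas for gluconeogenesis the order within the other strain ran the opposite way to BY4741.

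**Figure D3:**
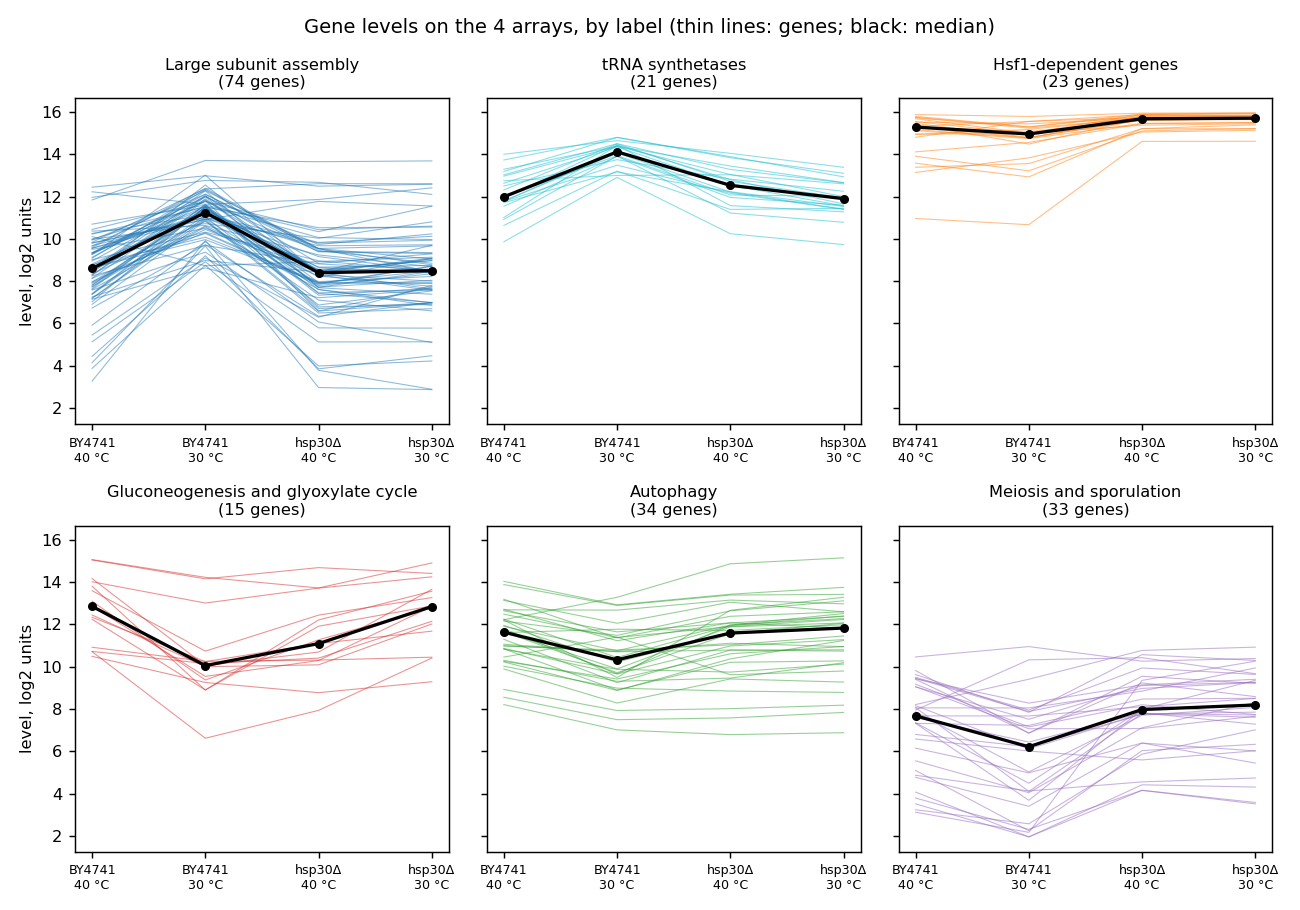
Level (vertical axis, log2 units) of each gene of 6 lists on the 4 arrays, labelled by strain and temperature, as thin lines, with the median over genes in black. The BY4741 30 °C array holds the highest median of the 4 for large subunit assembly (11.25) and for tRNA synthetases (14.11), and the lowest for gluconeogenesis (10.04), autophagy (10.32) and meiosis (6.21).

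Building blocks of growth were lower as well. Of 22 purine synthesis and salvage genes 17 were at least 2-fold lower and none higher (median -1.53), with AAH1 followed by ADE17 (11.92 at 40 °C and 14.90 at 30 °C), ADE6 (12.08 at 40 °C and 14.58 at 30 °C), ADE4, the first committed step (-2.45), and ADE13 (-2.25). Of 34 genes for DNA replication and deoxynucleotides 16 were lower and 1 higher (median -0.88). Thymidylate synthase CDC21 read 7.92 at 40 °C and 11.93 at 30 °C, the ribonucleotide reductase subunit RNR1 8.44 at 40 °C and 12.08 at 30 °C. The polymerases POL1 and POL2 differed by -2.98 and -2.69, and the clamp POL30 by -2.46. The higher one was RNR3, the damage-inducible copy of RNR1 (10.16 at 40 °C and 9.09 at 30 °C). Among 11 pyrimidine genes 4 were lower and 2 higher, with the extremes in CTP synthase URA7 (9.07 at 40 °C and 12.38 at 30 °C), the salvage enzyme FUR1 (9.42 at 40 °C and 12.73 at 30 °C) and URA10, a minor phosphoribosyltransferase (2.16).

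Amino acid synthesis was lower for most families. For aromatic amino acids 10 of 14 genes were at least 2-fold lower and all 14 below zero (median -1.63), led by ARO4, the first step (9.88 at 40 °C and 13.59 at 30 °C), and by ARO10 (9.83 at 40 °C and 12.98 at 30 °C) and ARO9 (-2.82) of the breakdown route. For branched-chain amino acids 7 of 12 were lower (median -1.31), among them threonine deaminase ILV1 (9.62 at 40 °C and 12.95 at 30 °C) and LEU9 (8.81 at 40 °C and 11.88 at 30 °C). For lysine, histidine, threonine and their neighbours 21 of 34 were lower and 2 higher (median -1.55), with HOM3, aspartate kinase (8.93 at 40 °C and 11.93 at 30 °C), HIS7 (8.53 at 40 °C and 11.50 at 30 °C) and THR1 (-2.86) at the low end. Arginine genes moved less, with 2 of 12 lower, ARG3 (5.08 at 40 °C and 7.55 at 30 °C) and ARG1 (8.58 at 40 °C and 9.87 at 30 °C), and 1 higher, the regulator ARG81 (1.25). Sulfate assimilation and methionine went the other way in part: of 27 genes 11 were higher by 2-fold or more and 4 lower (median 0.80). The sulfate permeases SUL1 (6.60 at 40 °C and 2.62 at 30 °C) and SUL2 (9.45 at 40 °C and 7.28 at 30 °C), the activator MET28 (3.43) and homoserine acetyltransferase MET2 (2.38) were higher, and SAM1, which makes S-adenosylmethionine, was lower (-2.99). The SUL1 difference was 2.24 under quantile normalization. GCN4, the activator of amino acid synthesis genes, differed by 0.43. Of 14 genes of the Ras and protein kinase A pathway, which couples glucose to growth, 2 were lower and 2 higher (median 0.31), under the shares of all genes. The lower ones were TPK3 (8.60 at 40 °C and 10.66 at 30 °C) and RAS1 (9.67 at 40 °C and 10.75 at 30 °C), and the kinase subunit TPK2 (1.28) was among the higher.

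Membrane, wall and secretion genes were lower in smaller numbers. Of 26 ergosterol genes 13 were at least 2-fold lower and 1 higher (median -1.03): ERG2 read 10.91 at 40 °C and 13.45 at 30 °C, ERG4 11.79 at 40 °C and 13.99 at 30 °C and ERG11, the target of azole drugs, 12.39 at 40 °C and 14.22 at 30 °C. Fatty acid synthesis had 5 of 15 genes lower, with the elongases ELO2 (9.16 at 40 °C and 12.02 at 30 °C) and ELO3 (11.38 at 40 °C and 13.48 at 30 °C) and the activating enzyme FAA4 (-2.70) at the low end. Translocation into the endoplasmic reticulum and glycosylation had 10 of 29 lower and none higher (median -0.80), among them SEC63 (10.09 at 40 °C and 12.68 at 30 °C) and the mannosyltransferase PMT4 (10.52 at 40 °C and 12.81 at 30 °C). For cell wall proteins and enzymes 12 of 33 were lower and 2 higher, with UTR2, a chitin glucan crosslinker (9.31 at 40 °C and 13.03 at 30 °C), CWP1 (11.43 at 40 °C and 14.39 at 30 °C), GAS1 (-2.32) and the glucan synthase FKS1 (-1.68) as examples. The cell wall integrity pathway, which senses wall stress, had 8 of 21 genes higher and 1 lower, among them the sensors MID2 (13.26 at 40 °C and 11.75 at 30 °C), MTL1 (12.29 at 40 °C and 10.78 at 30 °C) and WSC3 (1.04). At the plasma membrane the proton pump gene PMA1 read 13.87 at 40 °C and 14.94 at 30 °C, and its minor copy PMA2 8.61 at 40 °C and 9.99 at 30 °C. HSP30, known as a negative regulator of the pump, read 14.18 at 40 °C and 15.51 at 30 °C. All 3 were at least 2-fold lower. They were the only lower ones of 20 genes for the pump, its regulators and other membrane proteins, of which 3 were higher (median 0.37). Both counts are under the shares of all genes. Among the 3 higher was PTK2, a kinase that activates the pump, at 13.77 at 40 °C and 12.36 at 30 °C. Vacuolar proton pump genes lay below zero in 17 of 18 (median -0.46), 2 of them at least 2-fold lower, VMA5 (-1.17) and VMA2 (-1.15).

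Of 15 genes of G1 and start 4 were lower and 2 higher, FAR1 (10.40 at 40 °C and 13.22 at 30 °C), CLB6 (5.34 at 40 °C and 8.15 at 30 °C), PCL2 (-1.30) and PCL1 (-1.29) against the inhibitor SIC1 (1.47) and SWI6 (1.25). The PCL1 difference was -2.44 under quantile normalization. Of 21 mitotic regulators 4 were lower, near the share of all genes, and 2 higher. The lower ones were the cyclins CLB1 (-1.59) and CLB2 (-1.30), the kinase CDC28 (-1.08) and the phosphatase CDC14 (-1.30), and the higher ones CDH1 (1.33) and CDC15 (1.16). None of 10 histone genes was 2-fold different (median 0.21). Of 17 pheromone pathway genes 3 were lower and 2 higher (median -0.35), near or under the shares of all genes. The transcription factor STE12 was among the lower ones (10.53 at 40 °C and 12.45 at 30 °C), with none of the 7 a-specific genes 2-fold different.

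Genes for carbon sources other than glucose had the highest list medians. Of 15 genes of gluconeogenesis, the glyoxylate cycle and their transporters all were above zero and 11 at least 2-fold higher (median 2.45). PCK1, the PEP carboxykinase, read 14.16 at 40 °C and 10.04 at 30 °C, and FBP1, fructose bisphosphatase, 12.44 at 40 °C and 9.99 at 30 °C. ICL1 and MLS1, the 2 enzymes particular to the glyoxylate cycle, read 13.09 at 40 °C and 9.37 at 30 °C and 12.85 at 40 °C and 9.54 at 30 °C. The carriers JEN1 and SFC1, the succinate-fumarate carrier, read 13.80 at 40 °C and 8.89 at 30 °C and 10.71 at 40 °C and 6.61 at 30 °C. The activators of these genes were higher too: CAT8 read 14.01 at 40 °C and 10.42 at 30 °C, SIP4 7.80 at 40 °C and 3.99 at 30 °C, a difference of 3.81 that was 2.26 under quantile normalization, and ADR1 12.85 at 40 °C and 10.73 at 30 °C. On the array labelled hsp30Δ 30 °C PCK1 read 13.65, ICL1 12.77 and JEN1 13.56, close to their heated BY4741 levels. Within that strain the list was lower at 40 °C, with a median of -1.18 and 8 of 15 genes at least 2-fold lower. So its levels were highest on the BY4741 40 °C and hsp30Δ 30 °C arrays.

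Sugar transporters were split. Of 14 hexose transporter genes 8 were higher by 2-fold or more and 3 lower. The 3 lower ones are the carriers of growing cells HXT1 (5.99 at 40 °C and 10.02 at 30 °C), HXT2 (10.86 at 40 °C and 13.71 at 30 °C) and HXT3 (-2.25). Among the higher ones were GAL2 (8.90 at 40 °C and 4.20 at 30 °C), HXT10 (7.03 at 40 °C and 2.55 at 30 °C), HXT14 (4.18), HXT13 (4.05) and HXT11 (3.22). Quantile normalization put GAL2 at 3.14, HXT10 at 2.99, HXT14 at 2.96 and HXT11 at 2.33, and the floor at the highest fission yeast probe set put HXT13 at 3.18. The list median of 1.56 was 0.54 under quantile normalization, 1.29 with a floor at the highest fission yeast probe set and 2.48 when probe sets marked as sharing sequence were left out. All 14 measured genes for the use of galactose, maltose, isomaltose and sucrose were at least 2-fold higher (median 1.99), among them the maltase MAL32 (11.37 at 40 °C and 7.52 at 30 °C), the maltose permease MAL11 (12.95 at 40 °C and 9.76 at 30 °C), GAL3 (2.14) and invertase SUC2 (2.05). Of 24 genes of glucose sensing and repression 9 were higher and 4 lower. The glucose sensor SNF3 (12.26 at 40 °C and 10.54 at 30 °C) and the phosphatase subunit REG2 (12.85 at 40 °C and 9.98 at 30 °C) were higher, and the repressor MIG2 (-3.29) and the hexokinase HXK2 (-1.23) lower. Glycolysis itself had 3 of 16 genes lower, near the 18.8% of all genes, and none higher (median -0.31, or -0.71 without genes over 15). The 3 were PFK2 (13.86 at 40 °C and 15.27 at 30 °C), HXK2 and ENO2 (14.96 at 40 °C and 16.01 at 30 °C), and 13 of the 16 read above 15 at 30 °C.

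Fat oxidation and respiration were higher. Of 21 genes of beta-oxidation and the carnitine shuttle 14 were higher by 2-fold or more and 1 lower (median 1.49), with POT1, the thiolase (12.24 at 40 °C and 8.95 at 30 °C), CAT2, carnitine acetyltransferase (13.78 at 40 °C and 10.53 at 30 °C), FAA2 (2.97) and CRC1, the carnitine carrier (2.87), after CTA1. Peroxisome biogenesis had 10 of 25 genes higher and none lower, led by the import co-receptor PEX18 (11.39 at 40 °C and 8.55 at 30 °C). All 25 genes of the respiratory chain were above zero and 11 at least 2-fold higher (median 0.98). Here the dehydrogenases that feed the chain came first, lactate dehydrogenase CYB2 (14.71 at 40 °C and 11.55 at 30 °C), the external NADH dehydrogenase NDE2 (12.62 at 40 °C and 10.18 at 30 °C) and the internal one NDI1 (1.78), along with cytochrome c isoform CYC7 (2.17). In the TCA cycle 6 of 16 genes were higher, CIT3, malate dehydrogenase MDH1 (1.05) and all 4 succinate dehydrogenase subunits SDH1 (1.53), SDH4 (1.39), SDH3 (1.15) and SDH2 (1.08). ATP synthase genes were all above zero (median 0.77), with 3 of 16 at least 2-fold higher, near the 18.9% of all genes. Of these 3, TIM11 (1.39) and ATP20 (1.27) serve enzyme dimers. Of 10 glycerol genes 3 were higher and 3 lower. The higher ones were GUT1 (13.68 at 40 °C and 11.19 at 30 °C) and GUT2 (14.71 at 40 °C and 12.73 at 30 °C) of glycerol use and GCY1, a putative glycerol dehydrogenase (1.24). The lower ones were the glycerol-3-phosphatases GPP1 and GPP2 and the uptake carrier STL1 (6.03 at 40 °C and 7.64 at 30 °C).

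For 28 isozyme pairs of a main form and a minor or conditional form, put together after values had been seen, the minor form had the more positive difference in 25. The minor form was at least 2-fold higher in 19 pairs and lower in 2, and the main form higher in 3 and lower in 12, with medians of 1.78 and -0.62. In 8 pairs the minor form was at least 2-fold higher and the main form at least 2-fold lower, and in 7 under quantile normalization, where ACS2 differed by -0.94. These were NADP glutamate dehydrogenase (GDH3 at 2.57, GDH1 at -1.58), elongation factor 3 (HEF3 at 2.61, YEF3 at -1.89), acetyl-CoA synthetase (ACS1 at 2.10, ACS2 at -1.03) and ribonucleotide reductase (RNR3 at 1.07, RNR1 at -3.63). The other 4 were the pentose phosphate enzymes GND2 (1.96) and GND1 (-1.42), TKL2 (2.06) and TKL1 (-1.32), NQM1 (1.21) and TAL1 (-1.09), and the serine pathway pair SER3 (1.60) and SER33 (-1.83). The 3 pairs that went against the rest were COX5B (0.64) and COX5A (1.11), ADH2 (-0.24) and ADH1 (-0.20), and PMA2 (-1.39) and PMA1 (-1.07). Since the pairs were chosen with these values known, the count describes them and supports nothing further.

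**Figure D4:**
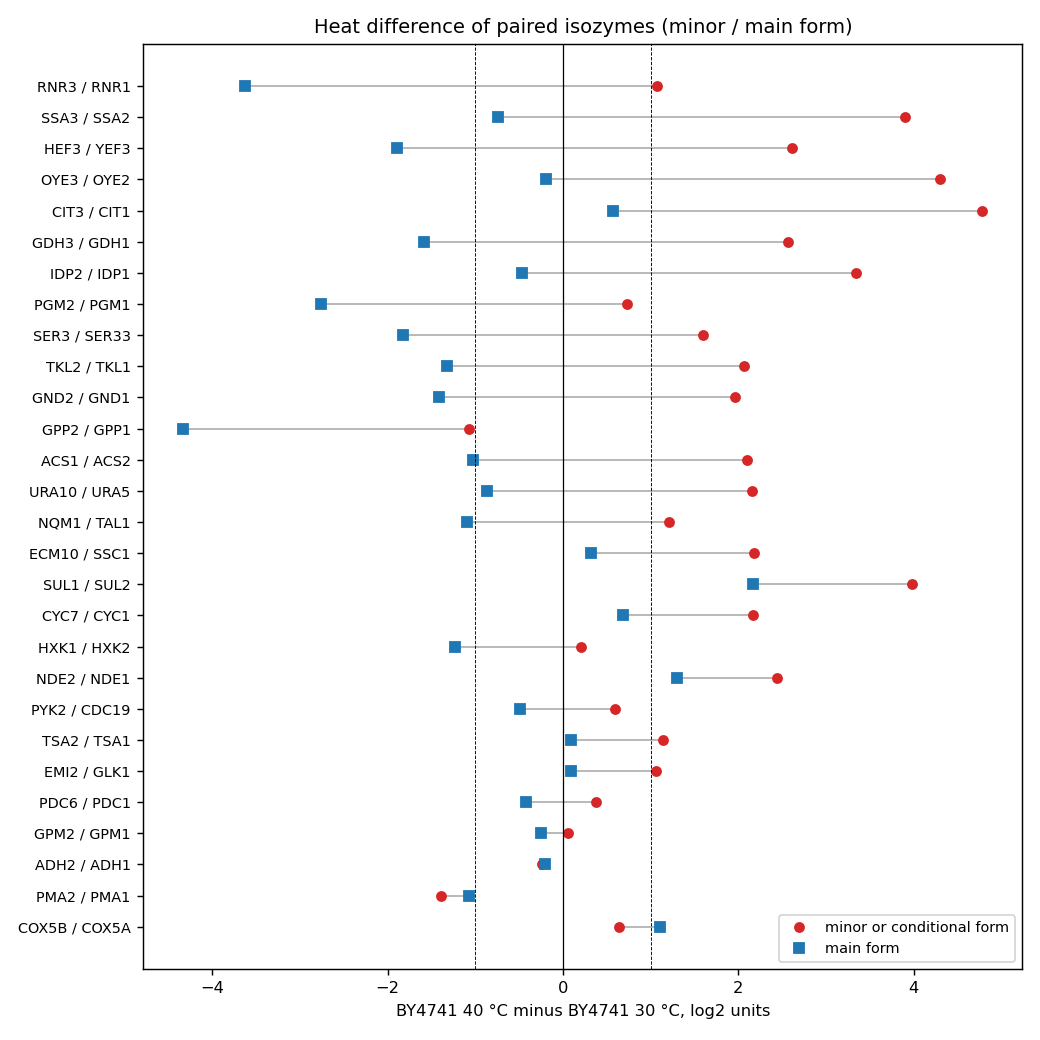
Difference between BY4741 40 °C and BY4741 30 °C (horizontal axis, log2 units) of the minor form (red circles) and the main form (blue squares) of 28 isozyme pairs, ordered by the gap between them. The minor form lies to the right in 25 pairs, and COX5B, PMA2 and ADH2 lie left of their partners.

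Autophagy genes were higher while most of the proteasome moved less. Of 34 autophagy genes 20 were higher by 2-fold or more and 1 lower (median 1.09). They included the kinase ATG1 (11.78 at 40 °C and 9.66 at 30 °C) and its partner ATG29 (11.29 at 40 °C and 9.24 at 30 °C), the receptors ATG39 for nucleus and endoplasmic reticulum (2.72) and ATG32 for mitochondria (1.93), and the enzymes that attach Atg8, ATG4 (1.95) and ATG3 (1.82). Of 13 vacuolar hydrolases and their inhibitors 3 were higher (median 0.41), near the 18.9% of all genes. They were PAI3 (12.87 at 40 °C and 10.68 at 30 °C), ATH1 and AMS1 (13.76 at 40 °C and 12.72 at 30 °C). All 33 proteasome genes were above zero with a narrow spread (median 0.52), and 2 passed 2-fold, RPN8 (14.37 at 40 °C and 13.27 at 30 °C) and RPN11 (14.15 at 40 °C and 13.10 at 30 °C). RNA decay had 6 of 33 genes lower and 1 higher, near the share of all genes for the lower ones, with the exosome helicase MTR4 at 6.90 at 40 °C and 10.14 at 30 °C and EDC1, a decapping activator, at 10.61 at 40 °C and 7.43 at 30 °C. Of 24 ubiquitin system genes 2 were higher and none lower, the ligases HUL4 (1.11) and HRD1 (12.52 at 40 °C and 11.52 at 30 °C).

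Nutrient uptake genes differed by nutrient. Of 27 iron genes 12 were higher by 2-fold or more and 2 lower (median 0.93), with the reductases FRE4 (6.27 at 40 °C and 2.97 at 30 °C) and FRE3 (9.49 at 40 °C and 7.42 at 30 °C), the siderophore carrier SIT1 (2.11), the wall protein FIT2 (2.35) and the haem oxygenase HMX1 (2.34) as examples. The FRE4 difference of 3.30 was 1.34 under quantile normalization. Phosphate genes went the other way, with 8 of 20 lower and 2 higher (median -0.76). The phosphatase PHO3 read 9.86 at 40 °C and 12.72 at 30 °C and the transporter PHO84 12.71 at 40 °C and 14.81 at 30 °C. The transporter PHO90 and the polyphosphate subunit VTC3 differed by -2.08 and -1.45. Of 23 genes under nitrogen catabolite repression 7 were higher and none lower, with allantoicase DAL2 (11.18 at 40 °C and 9.39 at 30 °C) and the GABA permease UGA4 (8.27 at 40 °C and 6.63 at 30 °C) first. Of 19 amino acid permeases 7 were higher and none lower, among them the S-methylmethionine permease MMP1 (9.61 at 40 °C and 6.44 at 30 °C) and AGP3 (8.82 at 40 °C and 6.57 at 30 °C). Of 23 vitamin genes 5 were higher and 5 lower (median 0.21), close to the shares of all genes. The biotin carrier BIO5 (6.93 at 40 °C and 2.11 at 30 °C) and SNO1 (6.42 at 40 °C and 3.72 at 30 °C) of vitamin B6 synthesis were higher, and the NAD synthesis genes BNA4 (-3.77) and BNA1 (-2.58) lower. Under quantile normalization the difference of SNO1 was 0.76 and that of BIO5 3.79. Zinc and copper genes had 1 of 14 past 2-fold, the metallothionein CRS5 (13.32 at 40 °C and 12.09 at 30 °C).

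Genes known to be little used in growing haploid cells read higher in BY4741 at 40 °C. Of 33 meiosis and sporulation genes 22 were higher by 2-fold or more and 2 lower (median 1.51). The cohesin REC8 read 8.06 at 40 °C and 4.10 at 30 °C, SPO20 7.32 at 40 °C and 3.68 at 30 °C. The axis protein HOP1 and the kinase MEK1 differed by 2.96 and 2.84. The differences of REC8 (3.96), SPO20 (3.64) and MEK1 were 2.45, 1.88 and 1.75 under quantile normalization. The list median was 1.18 under quantile normalization and 1.23 with a floor at the highest fission yeast probe set. Of the 33 genes 27 read above that probe set on both BY4741 arrays. The median level of the list was 7.67 at 40 °C and 6.21 at 30 °C, with 7.97 and 8.18 on the arrays labelled hsp30Δ 40 °C and 30 °C. In the PAU family of anaerobic wall proteins 6 of 13 genes were higher and 1 lower, but only 2 of the 13 have probe sets of their own. The aryl-alcohol dehydrogenase family had 4 of 5 genes higher, AAD10 furthest (14.12 at 40 °C and 11.18 at 30 °C).

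Shares also differed by kind of gene. Of 135 genes with a letter-suffixed systematic name, a form often given to short reading frames, 58 (43.0%) were higher by 2-fold or more and 9 (6.67%) lower. These were dim genes, with a median level of 5.32 on BY4741 30 °C against 11.29 for named genes. Of the 135, 18 have probe sets marked as sharing sequence. Of 355 other genes with only a systematic name 33.0% were higher and 10.7% lower, and of 4940 named genes 17.2% and 19.7%. Among the 10 genes nearest each chromosome end 88 of 231 were higher (38.1%) and 21 lower (9.09%), against 18.1% and 19.2% elsewhere. Of the 231, 53 have probe sets marked as sharing sequence, against 65 of 5199 elsewhere, so near copies may be counted more than once. Without such probe sets, and so with fewer genes, 70 were higher and 19 lower. Under quantile normalization 75 were higher and 24 lower. Chromosome ends hold many sugar, PAU and COS genes, which overlaps with the lists above. By level on the arrays labelled hsp30Δ, 37.8% of the dimmest of 10 equal classes were lower at 40 °C and 28.0% higher. These classes are not independent of the difference. The arrays labelled hsp30Δ had a Pearson r of 0.949 and 0.937 with BY4741 40 °C, against 0.812 and 0.787 with BY4741 30 °C. A gene high only on BY4741 30 °C thus falls in a dimmer class, so the shares by class cannot be read as an effect of level. In the brightest class 3.50% were lower and 22.7% higher, with a median of 0.55. The dimmest class held the largest share of 2-fold differences of the 10, counting both directions.

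**Figure D5:**
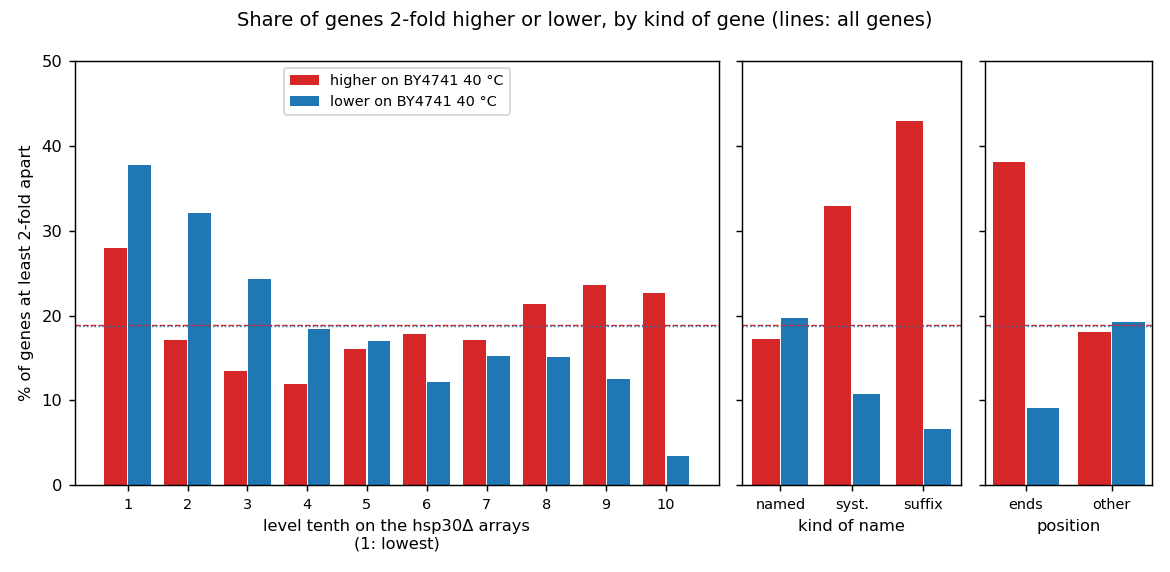
Share of genes (vertical axis, %) at least 2-fold higher (red) or lower (blue) on BY4741 40 °C than on BY4741 30 °C, by 10 classes of level on the hsp30Δ arrays, by kind of name (named, systematic only, systematic with a letter suffix) and by position (10 genes nearest a chromosome end, all other genes). Horizontal lines give the shares over all genes, 18.9% and 18.8%. Genes with a suffixed name reach 43.0% higher, and the share lower is 3.50% in the brightest class. The classes of level are not independent of the difference, since the hsp30Δ arrays lie closer to BY4741 40 °C than to BY4741 30 °C.

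Only a small set of genes set the heated BY4741 array apart from all 3 others. On BY4741 40 °C 37 genes read at least 2-fold above each other array and 71 at least 2-fold below. The genes named in this and the next paragraph were chosen after their values were seen. Of the 37, CIT3 read 9.39, with 7.64 and 7.89 on the arrays labelled hsp30Δ 40 °C and 30 °C. SHH3 and SHH4, homologues of succinate dehydrogenase subunits, read 12.02 and 12.83, against 7.64 and 9.61 on BY4741 30 °C, with 10.28 and 11.22 on the array labelled hsp30Δ 40 °C. Several more act in mitochondria, among them ATP20, the cardiolipin synthase CRD1 (11.50 at 40 °C and 10.08 at 30 °C), the kinase PKP2 that inhibits pyruvate dehydrogenase (12.09 at 40 °C and 10.42 at 30 °C) and MDM36 (2.40). Others were SUL1, SNO1, GLG2, the meiotic regulator NDT80 (9.05 at 40 °C and 7.06 at 30 °C), the beta-oxidation enzymes ECI1 (12.18 at 40 °C and 10.69 at 30 °C) and TES1 (1.07), and ATG16 (1.20) and ATG17 (1.04). Under quantile normalization ATG16 differed by 0.91 and SNO1 by 0.76, both under 2-fold. The counts of 37 and 71 were not rerun under the alternatives. Of the 71, EMW1, needed for cell wall integrity, read 6.57 on BY4741 40 °C and 10.46, 8.84 and 9.11 on BY4741 30 °C and the arrays labelled hsp30Δ 40 °C and 30 °C. YTM1 (7.38 at 40 °C and 11.14 at 30 °C) and NOC4 (7.53 at 40 °C and 11.27 at 30 °C) of ribosome assembly, RPS9A (-3.40), RPC17, HOM3, ILV2 (-2.22), ARG3, ARO9, CWP1, MIG2, PCL1, HSP30 and GIC1, an effector of the polarity GTPase Cdc42 (-2.37), were among them.

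The same direction past 2-fold was seen in both strain labels for 43 genes, 22 higher and 21 lower. These are 2.14% of the genes higher in BY4741 and 2.06% of those lower, near the 1.62% and 1.57% of all genes that were higher and lower on the arrays labelled hsp30Δ. The 2 strains had opposite directions for 70, which were 32 of the 1027 genes higher in BY4741 and 38 of the 1021 lower. Over all genes 1.57% were lower and 1.62% higher on the arrays labelled hsp30Δ. Among the 21 were KRR1 (BY4741 -4.32, hsp30Δ -1.61), NOP7 (-3.73 and -1.14), RRS1 (-3.64 and -1.51), LTV1 (-3.68 and -1.04) and RPL22A (-3.46 and -1.24). Ribosomal protein and assembly genes made up 8 of the 21 (38.1%), against 23.9% of all genes lower in BY4741. The rest included STL1 (-1.60 and -1.18) and ARG1 (-1.29 and -2.10). Among the 22 were meiotic MER1 (4.91 and 1.31), HOP2 (3.35 and 1.99) and GAS4, a spore wall enzyme (4.04 and 1.81), and the sugar genes HXT14 (4.18 and 1.27) and GAL10 (1.19 and 1.09). These 2 heat differences use separate arrays, but each is 1 array a side. Under quantile normalization HOP2 was at 1.37 in BY4741, GAS4 at 2.92 and HXT14 at 2.96.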

How the data were processed

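Total RNA of 4 groups was hybridised to Affymetrix yeast arrays, 1 array a group. The authors deposited log2 expression values for 5802 probe sets, made with GCRMA and MAS5 per the submitters' processing notes, which give no versions, roles or order. The genome build and the filter on probe sets are not given in the sources used here. The table held 0 columns of other samples.

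Of the probe sets, 5483 matched 1 budding yeast gene through the platform annotation, with 12 symbols updated from the RefSeq gene table (assembly R64), 287 have no gene name, and 32 belong to fission yeast and gave the background. Values under their 95th percentile, 1.96, were raised to it before differences were taken. Genes above it on at least 1 array entered. Where a gene had several probe sets, the one with the highest 4-array mean was used, and 1 of the 45 such genes (YBR219C) has probe sets that differ in opposite directions past 2-fold. Order along chromosomes came from the same RefSeq table.

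With 1 array a group there is no test, so genes at least 2-fold apart were counted, list medians taken, and the number of arrays limits the precision. The step that takes differences was run on simulated arrays without noise, where 200 of 200 genes given a known shift were recovered. That checks the arithmetic only and says nothing on the error of the counts. Named genes are the 20 highest and 20 lowest among genes above every fission yeast probe set on both arrays, the 5 at each end among the rest, the 6 members of each list with the largest difference, all members of lists of up to 20, and HSP30, HSF1, MSN2, MSN4, PMA1 and the auxotrophy genes. The members and lists were chosen with earlier results of these data known, and the isozyme pairs after their values were seen. Promoter motifs were planned and not analysed here. Alternatives were another scaling, floor, probe set choice, dim-gene filter, and leaving out genes over 15. Python 3.11.15, numpy 2.4.6, pandas 2.3.3 and matplotlib 3.10.9 were used.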

Additional observations from a re-analysis of the deposited data

Results flagged for a closer look

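Heat differences of BY4741 and of the strain labelled hsp30Δ were at least 2-fold in opposite directions for 1 gene list and for 19 of the genes named above, and this difference between the strains was not tested. The gluconeogenesis list had a median of 2.45 in BY4741 and -1.18 in hsp30Δ. Of its members, PCK1 differed by 4.12 in BY4741 and -2.96 in hsp30Δ, MLS1 by 3.31 and -2.55, SFC1 by 4.09 and -2.47, FBP1 by 2.45 and -1.93, ICL1 by 3.72 and -1.51, and JEN1 by 4.91 and -1.36. Outside that list were the fatty acid gene FAT3 (4.98 and -1.59) and the peroxisome gene PEX18 (2.84 and -1.02).

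Hexose transporters split between directions, with HXT11 at 3.22 in BY4741 and -1.07 in hsp30Δ, HXT2 at -2.85 and 1.24, and HXT3 at -2.25 and 1.25. Genes lower in BY4741 and higher in hsp30Δ were the repressor gene MIG2 (-3.29 and 1.56), the cyclin gene PCL1 (-1.29 and 1.59), the phosphatase gene PHO3 (-2.86 and 1.42), the wall gene UTR2 (-3.72 and 1.66) and the mannosyltransferase gene PMT4 (-2.29 and 1.03). The nascent-chain Hsp70 gene SSB2 (-1.66 and 1.20) and the pentose phosphate gene GND1 (-1.42 and 1.04) had the same pattern. YFR057W differed by -4.29 in BY4741 and 5.18 in hsp30Δ, where its 30 °C reading of 2.28 is under the highest fission yeast probe set, so that size is nominal.

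The 287 probe sets with no gene name entered none of the comparisons above. Of these, 226 read above background on a BY4741 array, and 98 were at least 2-fold apart between the BY4741 arrays, 67 higher at 40 °C and 31 lower.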

How the results depend on the processing

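Under 8 alternatives each count of genes or lists stayed within 1.5 times its value: genes at least 2-fold higher numbered 991 to 1047 and lower 965 to 1021, and genes at least 4-fold higher 207 to 280 and lower 381 to 403. Not all alternatives could move them. The floor, 1.96, lies next to the lowest value, 1.95, and the dim-gene filter removes few genes. Leaving out either one changed none of these counts. None of the 338 genes named here changed direction from a 2-fold difference. Quantile normalization moved 46 of them by 0.25 or more, 41 toward smaller differences and 34 by over 1.5 times. Among these FRE4 differed by 1.34 under it, HOP2 by 1.37, SPO20 by 1.88, SUL1 by 2.24, RTA1 by 3.34 and GAL2 by 3.14. The higher floor moved 7, BIO5 to 4.10, HXT13 to 3.18, YBL008W-A to 5.79 and YGL138C to 4.48 among them. SNO1 differed by 0.76 and ATG16 by 0.91 under quantile normalization, and ACS2, GPP2, HRD1 and RPB8 crossed 2-fold by small margins. The hexose transporter median was 0.54 under quantile normalization and 2.48 without suffixed probe sets, against 1.56. Without genes over 15 the Hsf1-dependent median was -0.04, against 0.38, that of Hsp70 genes 0.11, against 0.39, and that of cell wall proteins -0.91, against -0.27. Without suffixed probe sets the PAU median was -0.71, against 0.88. The meiosis median was 1.18 under quantile normalization and 1.23 with the higher floor, against 1.51. The ergosterol median was -0.98 in the alternative nearest to zero, against -1.03. The causes were not tested. No paired analysis was possible because each group has 1 array and the labels carry no replicate numbers. Genes near the top of the scale, or near background, have sizes that the signal limits.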
